A study of Homo sapiens with 6 samples.

Results

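The miRNA miR-21 was followed through its 2 mature arms, miR-21-5p and miR-21-3p (hsa-miR-21-5p and hsa-miR-21-3p), which are 2 of the 1155 miRNAs measured by small RNA sequencing in U2OS cells. The arms were chosen by name. U2OS is an established human osteosarcoma cell line. The tested cells stably carried an shRNA against LINC00673, a long intergenic non-coding RNA, and gave 3 libraries with the genotype label LINC00673. They were compared with 3 libraries labelled NC, which the design text calls wild type, while the sample titles of both groups begin with the same prefix, Lv, so it is not stated whether NC cells carried a control construct. The labels do not say that replicates came from separate cultures, nor whether the shRNA line is 1 clone or a pool, so the spread between libraries that the p-values rest on may be technical. The study asked how LINC00673 depletion alters expression in osteosarcoma.

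Like other miRNAs, miR-21 is cut from a hairpin precursor by Drosha and Dicer. The strand loaded into Argonaute guides the repression of transcripts that pair with its seed, and the other strand is mostly degraded. The miR-21-5p strand is the usual guide and represses tumour suppressor transcripts such as those of PDCD4 and RECK, which is why miR-21 is called an oncomiR. Its transcription is known to be driven by STAT3 and AP-1, and it is abundant in most solid tumours and cultured mesenchymal cells.

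The MIR21 gene lies at chr17:59841266-59841337 on the plus strand (GRCh38), within an exon of the protein-coding gene VMP1, which is transcribed in the same direction (GENCODE annotation). The sequences below are shown because the seed decides which transcripts are bound and because the level of every miRNA with this seed bears on the same targets. They come from RefSeq (GRCh38.p14), where 1 of the 2 arms was matched by name. Capitals mark the seed, bases 2 to 8, in the mature miRNAs, and the miR-21-5p arm in the hairpin.
miR-21-5p: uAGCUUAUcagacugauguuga
miR-590-5p: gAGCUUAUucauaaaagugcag
MIR21 hairpin: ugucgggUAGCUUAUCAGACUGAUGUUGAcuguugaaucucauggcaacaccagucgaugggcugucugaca
Among 2370 mature human miRNA names in that table, 2 had this seed, miR-21-5p and miR-590-5p. Outside the seed the pair differed, with the same base at 8 of 22 positions in all. The gene of miR-590-5p lies at chr7:74191198-74191294 in an intron of EIF4H.

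miR-21-5p was the most abundant miRNA in all 6 libraries. Its level was 156514.1, 176386 and 166959.7 CPM (reads scaled to the authors' library total of 1000000) in LINC00673 replicates 1, 2 and 3, against 116612, 136642 and 181624 CPM in NC replicates 1, 2 and 3. The groups overlapped, since NC replicate 3 was the highest of the 6 libraries and NC replicates 1 and 2 were the lowest. The mean was 166620.0 ± 9940.3 CPM over the 3 LINC00673 libraries, against 144959 ± 33294 CPM over the 3 NC libraries (± SD). The log2 difference was 0.22 ± 0.16 (standard error), with a 95% interval of -0.11 to 0.56 (limma on log2(CPM + 1), adjusted p = 0.659). Differences are LINC00673 minus NC throughout, and a positive one means a higher level in the LINC00673 libraries. miR-21-5p did not pass the threshold of 0.05, which 0.247% of the 810 miRNAs tested passed.

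The less abundant arm, miR-21-3p, stood at 1906.4, 2953 and 2672 CPM in LINC00673 replicates 1, 2 and 3, against 1893, 2061 and 2162 CPM in NC replicates 1, 2 and 3. LINC00673 replicates 2 and 3 were above all NC libraries, while LINC00673 replicate 1 lay among them. The mean was 2510.5 ± 542 CPM over the 3 LINC00673 libraries, against 2039 ± 136 CPM over the 3 NC libraries (± SD), a log2 difference of 0.28 ± 0.18 (standard error), with a 95% interval of -0.09 to 0.65 (limma adjusted p = 0.628). Neither arm passed on the reads recovered from the CPM steps. There the log2 difference of miR-21-5p was 0.30 in edgeR (adjusted p = 0.209) and 0.20 in DESeq2 (adjusted p = 0.574), and that of miR-21-3p was 0.40 (adjusted p = 0.307) and 0.29 (adjusted p = 0.355).

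**Figure D1:**
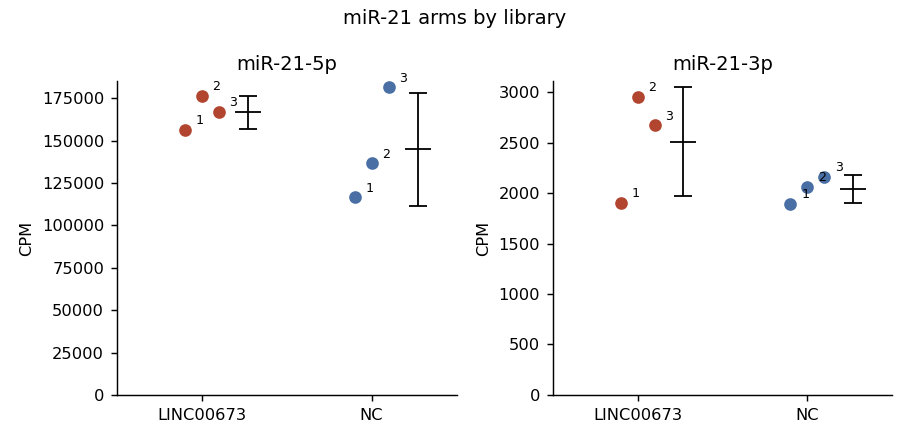
CPM of miR-21-5p (left) and miR-21-3p (right) by group, with 1 point per library labelled by replicate number and the mean ± SD (n = 3) beside the points. For miR-21-5p the NC libraries spread from 116612 to 181624 CPM around the narrower LINC00673 range, and for miR-21-3p LINC00673 replicate 1 lies within the NC range.

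The estimate for each arm moved with single libraries. Without NC replicate 3 the log2 difference of miR-21-5p was 0.40 (limma unadjusted p = 0.0150, adjusted p = 0.184), and without NC replicate 1 it was 0.08. For miR-21-3p it was 0.46 without LINC00673 replicate 1 (adjusted p = 0.430) and 0.15 without LINC00673 replicate 2 (adjusted p = 0.896). NC replicate 3, the library with the highest miR-21-5p level, also had the fewest reads (a denominator of 295567 reads, against 311448 to 762663 in the other libraries), and the part of depth in its level was not tested.

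Counting error was small beside this spread. miR-21-5p was read 59522, 130940 and 127334 times in LINC00673 replicates 1, 2 and 3, and 56361, 42557 and 53682 times in NC replicates 1, 2 and 3, for a counting error of 0.276% to 0.485% of the level. miR-21-3p was read 725, 2192 and 2038 times in the LINC00673 libraries and 915, 642 and 639 times in the NC libraries, for a counting error of 2.14% to 3.96%. These errors cover counting alone, since the labels name no molecular identifiers. The spread between replicates was unequal in opposite ways for the arms. The SD of log2(CPM + 1) was 0.09 in LINC00673 and 0.32 in NC libraries for miR-21-5p, and 0.33 and 0.10 for miR-21-3p. Over the 60 miRNAs that averaged 1000 CPM or more the median SD was 0.13 in LINC00673 and 0.26 in NC libraries. By size of the SD among these 60, miR-21-5p came 39th in LINC00673 and 21st in NC libraries, while miR-21-3p came 4th and 54th.

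As a share of the listed miRNA reads, miR-21-5p took 22.4%, 24.5% and 23.4% in LINC00673 replicates 1, 2 and 3, against 17.01%, 19.7% and 25.4% in NC replicates 1, 2 and 3. The exact 95% binomial interval of each share was within 0.186 percentage points of it, so the 6 shares differed by more than counting error. The mean share was 23.4 ± 1.05% over the 3 LINC00673 libraries, against 20.7 ± 4.29% over the 3 NC libraries (± SD; exact permutation p = 0.4, two-sided, where 0.1 is the smallest possible). The miR-21-3p share was 0.273% to 0.410% in LINC00673 and 0.276% to 0.302% in NC libraries, and this arm ranked between 37th and 42nd by level in LINC00673 and between 41st and 46th in NC libraries.

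miR-21-5p was 2.55, 2.64 and 2.56 times as high as the second most abundant miRNA in LINC00673 replicates 1, 2 and 3, which was miR-29a-3p, a repressor of collagen transcripts, in each. In NC replicates 1, 2 and 3 it was 1.69, 2.15 and 2.89 times as high as the second, which was miR-16-5p, a repressor of cell cycle transcripts, in NC replicates 1 and 3 and miR-29a-3p in NC replicate 2. The lead of miR-21-5p over the next miRNA thus varied more among the NC libraries than among the LINC00673 libraries. Adapter ligation favours some sequences, so these ratios between miRNAs are ratios of reads and not of molecules.

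**Figure D2:**
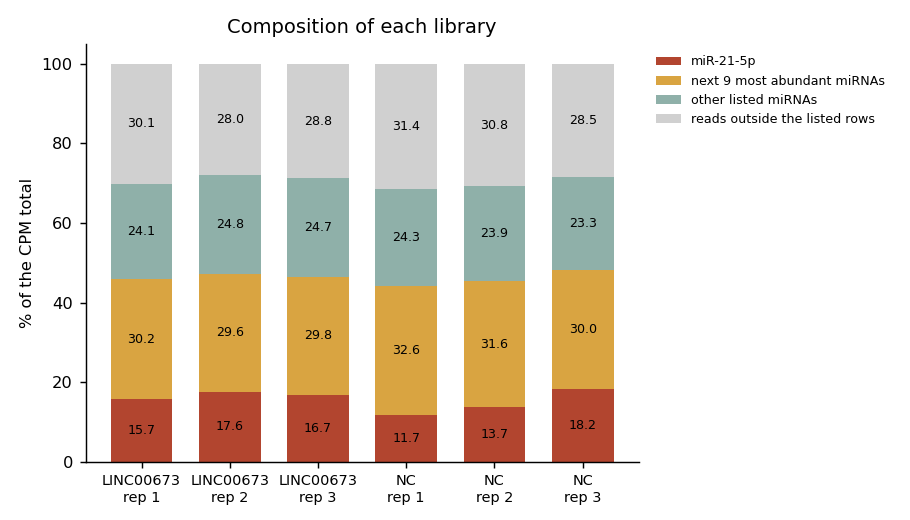
Percent of the CPM total in each library taken by miR-21-5p, by the next 9 most abundant miRNAs, by the other listed miRNAs and by reads outside the listed rows, stacked to the full total. miR-21-5p takes 15.7% to 17.6% in LINC00673 libraries and 11.7% to 18.2% in NC libraries, and the next 9 take 29.6% to 30.2% and 30.0% to 32.6%.

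CPM values of a library add up to a fixed total, so reads taken by miR-21 lower the CPM of every other miRNA. Both arms together held 15.8%, 17.9% and 16.96% of the total in LINC00673 replicates 1, 2 and 3, against 11.9%, 13.9% and 18.4% in NC replicates 1, 2 and 3. Counted against a total without the miR-21 reads, each other miRNA was therefore 18.8%, 21.9% and 20.4% higher than its deposited CPM in the LINC00673 libraries and 13.4%, 16.1% and 22.5% higher in the NC libraries. Between groups the difference was small. The miR-21 share shifted the deposited CPM of every other miRNA by -2.55% in LINC00673 relative to NC libraries, or -0.04 on the log2 scale. Without NC replicate 3 this shift was -0.07, and without NC replicate 1 it was -0.01.

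Such a shift was small beside the differences that most single miRNAs showed. The median size of the log2 difference over the 810 miRNAs tested was 0.45, and the median standard error at a mean of at least 1000 CPM was 0.17. Of the 810, only 362 averaged 10 CPM or more, so that median includes many miRNAs with few reads. Among abundant miRNAs some differences were nearer the shift (miR-25-3p 0.06, miR-29a-3p 0.09), while others were far larger (miR-16-5p -0.43, miR-221-3p 0.53). Rescaling to the total without miR-21 moves all other miRNAs nearly alike, so by construction it could turn only those with a log2 difference just below 0, which were 20 of 808 (2.48%). The median log2 difference of the 808 was 0.09 after rescaling and 0.06 before, and 55.6% lay above 0 after rescaling and 53.1% before. After rescaling, 68 of the 808 miRNAs had every LINC00673 library above every NC library and 57 had every one below, compared with 63 and 62 in the deposited CPM, which is 7.78% and 7.65% of the 810 tested, or 15.4% in either direction.

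The count of miRNAs past the threshold was 2 higher and 0 lower in limma both before and after rescaling, with 54 higher (6.67%) and 36 lower (4.44%) at an unadjusted p under 0.05 before it. The pair that passed was in both cases miR-92a-3p and miR-92b-3p, of the family of the oncogenic miR-17-92 cluster. With miR-21 taken out of the total, the log2 difference was 0.85 for miR-92a-3p (limma adjusted p = 0.0270, against 0.81 and 0.0358 before) and 1.28 for miR-92b-3p (limma adjusted p = 0.0325, against 1.24 and 0.0392 before). On recovered reads edgeR passed 15 higher (1.85%) and 7 lower (0.864%), and DESeq2 passed 5 (2.35%) and 10 (4.69%) of the 213 to which it gave an adjusted p. In limma miR-92a-3p and miR-92b-3p no longer passed when any 1 library was left out, while their log2 differences were then 0.69 to 0.90 and 1.05 to 1.51.

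**Figure D3:**
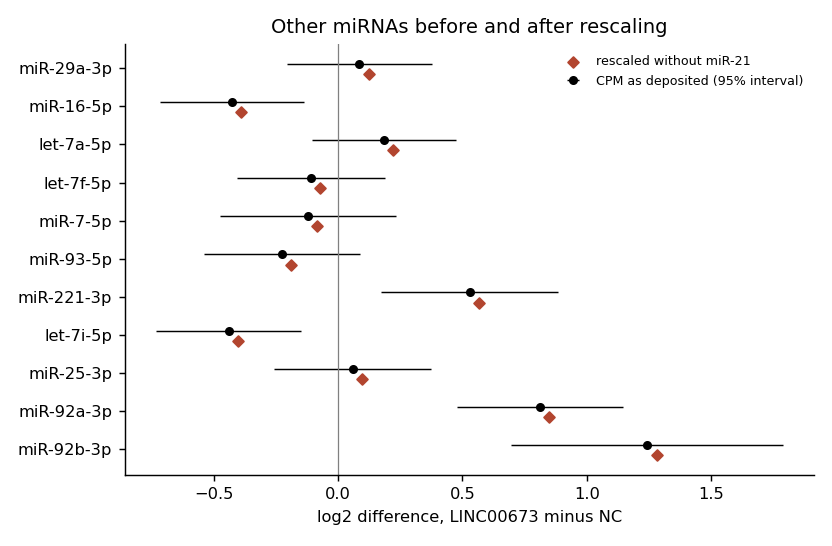
The log2 difference (LINC00673 minus NC) of the 9 most abundant miRNAs after miR-21-5p and of miR-92a-3p and miR-92b-3p, with the 95% interval for CPM as deposited (circles) and after rescaling to the total without both miR-21 arms (diamonds). Every diamond lies about 0.04 to the right of its circle, and no direction changes.

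In percentage points of the library total, miR-21-5p was the most abundant miRNA and also the one with the widest group difference among the 10 most abundant, at 2.17 points more in LINC00673 than in NC libraries. Next by size was miR-16-5p, with a difference of -1.66 points in the LINC00673 libraries, where it stood at 47848 ± 638 CPM, against 64441 ± 3922 CPM over the NC libraries (± SD, n = 3 each; limma adjusted p = 0.182, and 0.227 after rescaling). miR-221-3p, which represses the cell cycle inhibitor CDKN1B, differed by 0.69 points, let-7i-5p by -0.56 points and let-7a-5p, of the tumour-suppressive let-7 family, by 0.51 points. The other 5 of the 10 differed by at most 0.42 points in either direction. Points grow with the level of a miRNA. The log2 difference of miR-21-5p (0.22), whose groups overlapped, was smaller in size than those of miR-221-3p (0.53), let-7i-5p (-0.44) and miR-16-5p (-0.43). miR-16-5p and let-7i-5p had every LINC00673 library below every NC library (7.65% of all tested), and let-7a-5p had every one above (7.78% of all tested). None of these passed limma (let-7i-5p adjusted p = 0.182, let-7a-5p 0.694). None of these non-overlapping miRNAs passed edgeR (adjusted p = 0.223 for miR-16-5p, 0.302 for let-7i-5p and 0.381 for let-7a-5p). miR-221-3p, whose groups overlapped, passed edgeR as higher (adjusted p = 0.0166, with 1.85% of all tested). DESeq2 passed miR-16-5p and let-7i-5p as lower (adjusted p = 0.0468 and 0.0279, with 4.69% of those it tested) but not let-7a-5p (adjusted p = 0.453).

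The widest gap in the miR-21 share lay within the NC group. NC replicate 3 held 6.50 points more miR-21-5p than NC replicate 1, with a difference of -3.60 points in the other listed miRNAs and of -2.91 points in the reads outside the listed rows. By scale alone every other miRNA would be shifted by -7.41% in NC replicate 3 relative to NC replicate 1, or -0.11 on the log2 scale. The measured median log2 difference between these libraries was 0.09 over the 162 other miRNAs that averaged 100 CPM or more, and 71 of the 162 were lower in NC replicate 3. Among the 10 most abundant miRNAs, the difference of NC replicate 3 from NC replicate 1 was -1.09 points for miR-7-5p, -0.76 points for miR-93-5p, -0.61 points for miR-29a-3p and -0.60 points for miR-16-5p, but 0.90 points for miR-221-3p.

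miR-590-5p, which shares the seed of miR-21-5p, was rare. It stood at 15.8, 26.9 and 14.4 CPM in LINC00673 replicates 1, 2 and 3, against 51.7, 44.95 and 16.9 CPM in NC replicates 1, 2 and 3, from 6, 20 and 11 reads against 25, 14 and 5 reads. NC replicate 3, the library with the most miR-21-5p, had the least miR-590-5p of its group, and the groups overlapped there. The mean was 19.0 ± 6.87 CPM over the 3 LINC00673 libraries, against 37.9 ± 18.5 CPM over the 3 NC libraries (± SD), a log2 difference of -0.86 ± 0.47 (standard error) (limma adjusted p = 0.514, edgeR adjusted p = 0.261), so the opposite sign to miR-21-5p did not pass the threshold. Without NC replicate 3 the log2 difference was -1.35 (limma unadjusted p = 0.0106, adjusted p = 0.156), and without NC replicate 1 it was -0.57 (adjusted p = 0.720). The other arm of the same hairpin, miR-590-3p, was at 549.99 ± 48.96 CPM over the LINC00673 libraries, against 509.5 ± 82.3 CPM over the NC libraries.

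The ratio of the miR-21 arms did not pass the test between groups. miR-21-5p over miR-21-3p was 82.1, 59.7 and 62.5 in LINC00673 replicates 1, 2 and 3, against 61.6, 66.3 and 84.0 in NC replicates 1, 2 and 3. LINC00673 replicate 1 and NC replicate 3 were the high libraries, 1 in each group, and the groups overlapped. The mean ratio was 68.1 ± 12.2 over the 3 LINC00673 libraries, against 70.6 ± 11.8 over the 3 NC libraries (± SD). The fit covered the 184 hairpins whose arms matched by name, both at a mean of at least 1 CPM. The log2 difference of the ratio was -0.05 ± 0.20 (standard error), with a 95% interval of -0.53 to 0.42 (limma adjusted p = 0.910). Of the 184 hairpins, 0% passed this test, while 18 (9.78%) had an unadjusted p under 0.05.

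Set among these hairpins by the mean over 6 libraries, miR-21 ranked 1st in the summed level of its arms and 1st in the level of its less abundant arm. In the ratio of the more to the less abundant arm it ranked 35th of 184, at 68.5, where the median was 8.03. Pairing by matching arm names left out miR-16, let-7f and miR-7, whose 5p arms are among the 10 most abundant miRNAs. The paired hairpins nearest to miR-21 in summed level were mostly more one-sided. The ratio was 1898 for miR-29a, 674 for let-7a, 525 for miR-93 and 3601 for let-7i, but 15.5 for miR-221. miR-21-3p averaged 2275 CPM, and the next highest minor arm, miR-221-5p, averaged 1316 CPM. These ratios too depend on how well each arm was ligated.

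**Figure D4:**
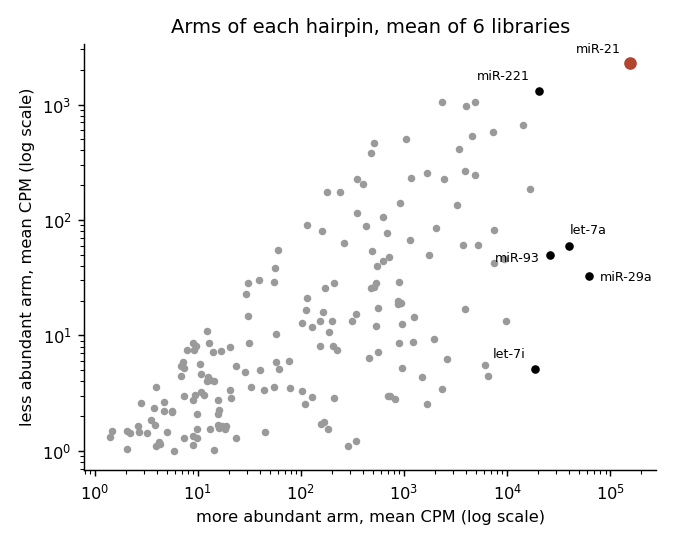
Mean CPM over 6 libraries of the less abundant arm against that of the more abundant arm for 184 hairpins paired by arm name, both on log scales. miR-21 is in red and the 5 of these hairpins nearest in summed level are in black. miR-21 sits at the top right, with 155789.6 CPM for its main arm and 2275 CPM for the other.

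The arms were then compared in their profiles across libraries. Likeness was measured as the root mean square difference of log2(CPM + 1) after centring each miRNA over the 6 libraries, among miRNAs that averaged 100 CPM or more. By this measure the arms differed by 0.20. That put miR-21-3p 30th of 163 in likeness to miR-21-5p, where the median of all was 0.32, and miR-21-5p 18th of 163 in likeness to miR-21-3p, where the median was 0.34. Nearest to miR-21-5p were miR-421 (0.10), miR-148b-3p (0.11), miR-99a-5p (0.11), miR-590-3p (0.11) and miR-589-5p (0.11). miR-148b-3p, for example, was at 5083, 5722 and 5527 CPM in the LINC00673 libraries and 4570.4, 4614 and 5637 CPM in the NC libraries, so that NC replicate 3 lay among the LINC00673 libraries, while for miR-21-5p it was above them.

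Nearest to miR-21-3p were miR-199a-3p and miR-199b-3p (0.07 each), whose rows were identical, then miR-374a-5p (0.13), miR-222-5p (0.14) and miR-625-3p (0.14). miR-199a-3p, a mesenchymal miRNA, was at 4410 CPM in LINC00673 replicate 1 and at 5962 and 5545 CPM in replicates 2 and 3, against 4117 to 4691 CPM in NC libraries. The low value of LINC00673 replicate 1 was shared with miR-21-3p. For miR-374a-5p and miR-222-5p the LINC00673 libraries all exceeded the NC libraries (7.78% of all tested), without passing limma (adjusted p = 0.647 and 0.444). None of the 10 miRNAs nearest to either arm passed limma (0.247% of all tested did), edgeR or DESeq2, with none at an unadjusted p under 0.05 in limma. They were chosen for profiles like those of arms that did not pass, so this outcome was largely set by the choice.

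**Figure D5:**
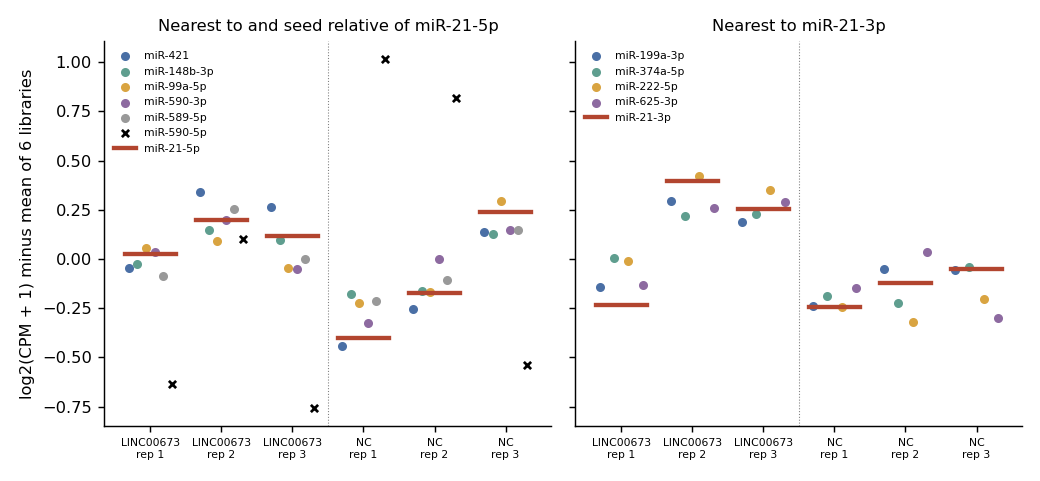
Centred log2(CPM + 1) in each library of miR-21-5p (left) and miR-21-3p (right), drawn as red bars, with the nearest miRNAs as points and miR-590-5p as crosses. miR-199b-3p is left out, as its values equal those of miR-199a-3p. For miR-21-5p, NC replicates 1 and 2 are low and NC replicate 3 is high, while miR-590-5p is high in NC replicates 1 and 2.

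Other miRNAs of the same pathways were read from lists, which were chosen with earlier results of these data known. Of 8 other miRNAs known to be induced by STAT3, NF-kB or AP-1, 7 had a log2 difference above 0 and the median was 0.32, against a median of 0.06 over all 810 tested and 53.1% above 0 over the 808 outside miR-21. None passed limma, 3 were higher at an unadjusted p under 0.05 (6.67% of all tested were), and edgeR passed miR-221-3p as higher (1.85% of all tested) and DESeq2 passed 0. In 2 of the 8, miR-146a-5p and miR-181b-5p, every LINC00673 library was above every NC library (7.78% of all tested). miR-221-3p was at 22251, 25100.0 and 24096 CPM in LINC00673 replicates 1, 2 and 3. In NC replicates 1, 2 and 3 it was at 13722, 14327 and 22769.8 CPM, with replicate 3 among the LINC00673 libraries. Its log2 difference was 0.53 ± 0.17 (standard error) (limma adjusted p = 0.182, edgeR adjusted p = 0.0166). Next by level came miR-125b-5p at 13185 ± 765 CPM over the LINC00673 libraries, against 9943 ± 3587 CPM over the NC libraries (limma adjusted p = 0.304). Its NC order was the reverse, at 14063, 8252 and 7514 CPM in NC replicates 1, 2 and 3. There NC replicate 1 was above every LINC00673 library. miR-222-3p was at 3595 ± 429 against 2877 ± 864 CPM (limma adjusted p = 0.491), with NC replicate 3 (3840 CPM) among the LINC00673 libraries.

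Chromosome 17 carries further miRNA genes on both sides of MIR21, some of them far from it, such as MIR636 (16.9 Mb) and MIR3065 (21.3 Mb). Of 9 miRNAs from 17q22 to 17q25 that were tested, 5 had a log2 difference above 0 and the median was 0.05. None passed limma, with 1 higher and 1 lower at an unadjusted p under 0.05 (6.67% and 4.44% of all tested). On recovered reads edgeR passed 0 and DESeq2 passed miR-301a-3p as lower (4.69% of those it tested). The groups did not overlap for 4 of the 9 (15.4% of all tested). In LINC00673 libraries miR-636 was higher, while miR-3065-3p and both arms of the miR-301a hairpin, miR-301a-3p and miR-301a-5p, were lower. miR-3065-3p averaged 4.14 CPM, where 3 reads equal 3.93 to 10.15 CPM by library, so its lower level rests on few reads. The miR-301a arms come from the same hairpin, so they are not separate cases. The neighbours MIR454 and MIR301A start at -0.704 and -0.690 Mb from the start of MIR21, toward lower coordinates. miR-454-3p was at 3932 ± 845 CPM over the LINC00673 libraries, against 3587 ± 818 CPM over the NC libraries, while miR-301a-3p was at 468 ± 91.9 against 793 ± 135 CPM (log2 difference -0.76, limma adjusted p = 0.0943, DESeq2 adjusted p = 0.0341). miR-301a-3p and both miR-21 arms had log2 differences of opposite sign.

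The label of a mesenchymal tumour line was set against marker miRNAs. The 9 mesenchymal miRNAs measured summed to 47692 to 53992 CPM in LINC00673 and 34918 to 43371 CPM in NC libraries. The 4 measured members of the epithelial miR-200 family summed to 2.63 to 16.2 against 12.4 to 23.7 CPM. Each of these members had 0 to 7 reads a library, too few to compare the groups. Most of the mesenchymal sum was miR-221-3p and miR-125b-5p, whose own groups overlapped. These and miR-222-3p are also in the list induced by STAT3, NF-kB or AP-1, so the results of both lists are partly the same values. Of 9 mesenchymal miRNAs tested 8 had a log2 difference above 0 (median 0.36), and 0 passed limma, with 3 higher and 1 lower at an unadjusted p under 0.05 (6.67% and 4.44% of all tested), while edgeR passed miR-221-3p (1.85% of all tested as higher) and DESeq2 passed 0. The groups did not overlap for 1 of the 9, miR-199a-5p, which was lower in LINC00673 libraries (7.65% of all tested). The 7 measured miRNAs of blood and other lineages summed to 5243 to 6197 CPM in LINC00673 and 5698 to 7610 CPM in NC libraries, most of it miR-126-3p and miR-9-5p. Their part in the miR-21 values was not tested.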

How the data were processed

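The 6 libraries were made from total RNA isolated with TRIzol, using a NEBNext small RNA kit, per the labels' protocols. The authors deposited CPM values per mature miRNA, scaled to a total of 1000000 that includes reads outside the listed rows, since the listed rows summed to 68.6% to 72.0% of it. Per the submitters' processing notes, hg38 was used. The programs that aligned and counted the reads, the miRBase release and the handling of shared reads were not given in the sources used here. All CPM values above 0 were whole multiples of 1 step per library (100% within 0.1 read), which gave the reads: 295567 to 762663 per library in all and 211242 to 543144 in listed rows. No other row equalled either miR-21 arm.

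Differences were tested in limma 3.58.1 (R 4.3.3, variance trend) on log2(CPM + 1) for miRNAs that averaged 1 CPM or more, which understates changes of low miRNAs, with Benjamini-Hochberg adjustment over all tested. The arm ratio was fitted over all 5p and 3p rows that matched by name, both averaging 1 CPM or more. edgeR 4.0.16 (quasi-likelihood, TMM) and DESeq2 1.42.0 were run on recovered reads as alternatives. The fits were tested on simulated data with changes far larger than those of the miR-21 arms, so that test does not cover differences of their size. The members and lists were chosen with earlier results of these data known. Besides the 2 arms, the naming rule took the 10 most abundant miRNAs, the 5 nearest in profile to each arm, those past the threshold, the seed relative and up to 4 of the most abundant of each list. Further list members whose groups did not overlap are named outside it, after their values were seen. The result of 1 list is not reported here.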

Additional observations from a re-analysis of the deposited data

How the results depend on the processing

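miR-21-5p and miR-21-3p had a positive log2 difference and did not pass under any of the alternatives run. The range was 0.20 to 0.39 for miR-21-5p over 12 alternatives (adjusted p = 0.209 to 0.758) and 0.25 to 0.45 for miR-21-3p over 13 (adjusted p = 0.231 to 0.722), with TMM scaling highest for both, which moved the median of all miRNAs to 0.20. Leaving out 1 library gave 0.08 to 0.40 and 0.15 to 0.46. Quantile normalization gives no value for miR-21-5p, which holds the top rank in every library. The arm ratio difference, -0.05, was -0.20 to 0.08 with 1 library left out, with a positive sign without LINC00673 replicate 2 (0.03) or 3 (0.00068) or NC replicate 3 (0.077), and the cause was not tested. The share difference of 2.72 percentage points was 0.858 to 5.06 with 1 library left out, and the scale shift -0.07 to -0.01. The number of miRNAs past the threshold, 2, was 0 with a pseudocount of 0.5, a minimum of 10 CPM, listed totals, totals without the 10 most abundant, quantile normalization or any 1 library left out, 8 with a pseudocount of 5, 11 with no filter, 22 in edgeR and 15 in DESeq2. The fit with the replicate number as a block gave 0.22 for miR-21-5p (adjusted p = 0.651), 0.28 for miR-21-3p (adjusted p = 0.566), -0.05 for the arm ratio and 2 miRNAs past the threshold. Same-numbered libraries deviated together weakly (r = 0.12, 0.15 and 0.03 over 362 miRNAs), though each was closest to its own number. The labels do not state that the numbers pair the libraries, and for that reason the main fit left them out. For the other 36 miRNAs the rule took, 680 values were obtained under alternatives. Of these, 5 newly passed the threshold, and there were 18 sign changes. The threshold was no longer passed by 22 values, all of miR-92a-3p or miR-92b-3p, the only ones of the 36 past it in the main fit. miR-590-5p rested on 5 to 25 reads a library, so counting error is wide there.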
